A study of Homo sapiens with 12 samples.

Results

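Adenosine is a signal that cells receive at their surface and a purine that they take apart inside. ATP released from a cell is cut to AMP and then to adenosine, the last step by CD73 (encoded by NT5E), and adenosine then binds A1, A2A, A2B or A3 receptors. A1 lowers cyclic AMP and A2A and A2B raise it. Inside the cell, adenosine kinase (ADK) turns adenosine back into AMP, adenosine deaminase (ADA) turns it into inosine, AMP deaminases (AMPD2, AMPD3) turn AMP into IMP, adenylosuccinate synthases (ADSS1, ADSS2) start the way from IMP back to AMP, and adenylate kinases such as AK4 of the mitochondrial matrix move phosphate between adenine nucleotides.

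The 10 genes described here are ADORA2B, ADORA1, ADORA2A, NT5E, ADA, ADK, ADSS1, AMPD2, AMPD3 and AK4, taken by symbol from the 28278 genes counted in 12 libraries of polyA RNA. ADORA2B and ADSS1 were picked, selected on their HCQ-evolved against control values in these libraries because they rose in both cell lines, so their change after hydroxychloroquine (HCQ) is given as a description with no test, and only the other 8 genes were tested for it. HCQ is an antimalarial drug that collects in lysosomes. Cells labelled OVCAR3 (ovarian cancer) and CCL218 (colorectal cancer), both p53 mutant, were passaged well by well in 96-well plates. HCQ-evolved cells had received 15 pulses of HCQ lasting 48 h, each followed by drug-free growth, and then 7 days without drug, and carry the label passage 15. Control cells of the same line were passaged without HCQ and carry the label passage 19, so drug history and passage label cannot be told apart. In each line and condition the wells of one plate were combined by position into a left (L), middle (M) and right (R) pool, which gave 4 groups of 3 pools. Pools of 1 group thus share a plate, and the spread between them is that of separately passaged wells of 1 plate.

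Libraries held 31147822 to 59965861 counts. The line labels were compared with marker genes. Of 10 ovarian markers, SOX17, EMX2, ESR1 and CDH6 were under 1 CPM (counts relative to library size, after TMM scaling) in all 12 libraries. PAX8 was between 6.4 and 14.9 CPM in all of them, and the summed ovarian markers were at 66.8 to 106.7 CPM in libraries labelled OVCAR3 and 130.9 to 188.8 CPM in those labelled CCL218. MSLN made up much of that difference (2.21 to 18.3 CPM under OVCAR3, 46.4 to 128.1 CPM under CCL218), whereas MUC16 reached 50.1 CPM under OVCAR3 and 14.3 CPM under CCL218, and FOLR1 was higher under OVCAR3 in controls (3.71 to 6.09 against 2.09 to 3.32 CPM). Intestinal markers were present under both labels, with VIL1 at 78.5 CPM or more in every library, and their sum was 275.5 to 1313 CPM under OVCAR3 and 1260.0 to 1787 CPM under CCL218, although CDX1 and KRT20 were under 1 CPM in every library. In OVCAR3 that sum was lower in HCQ-evolved pools (275.5 to 813.6 CPM) than in control pools (1037 to 1313 CPM), and in CCL218 the intestinal markers CDX2, CDH17 and GPA33 were called higher after evolution (3 of 7 tested). Their part in the changes below was not tested. There were 0 genes that reached 5 CPM throughout one label while staying under 0.2 CPM throughout the other, beside 9398 that reached 5 CPM everywhere. The names OVCAR3 and CCL218 are therefore used below as labels. PTPRC, CD3E, COL1A2 and PDGFRB, markers of immune and stromal cells, were at or near 0 throughout, while the other 3 of that list of 7 were not, with CD14 at 4.53 to 23.6 CPM, COL1A1 at 0.603 to 3.15 CPM and PECAM1 at 0.568 to 3.17 CPM.

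The windows of 250 bases just upstream of the RefSeq transcription starts (GRCh38.p14) of ADORA2B, ADSS1 and AK4 are shown because these are the tested genes with the largest fold changes. Capitals mark the letters GCGTG or ACGTG, the core of the hypoxia response element, searched on both strands. The ADORA2B window ends where its gene begins in GENCODE 44, the ADSS1 window reaches into the annotated gene, and the AK4 window lies inside the AK4 gene downstream of an earlier annotated start.
ADORA2B, chr17:15944880-15945129, plus strand: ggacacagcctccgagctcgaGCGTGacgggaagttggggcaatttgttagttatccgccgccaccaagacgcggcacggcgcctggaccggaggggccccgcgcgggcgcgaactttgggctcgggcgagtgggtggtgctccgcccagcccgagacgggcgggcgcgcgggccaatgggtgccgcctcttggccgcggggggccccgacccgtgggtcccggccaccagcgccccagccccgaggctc
ADSS1, chr14:104723979-104724228, plus strand: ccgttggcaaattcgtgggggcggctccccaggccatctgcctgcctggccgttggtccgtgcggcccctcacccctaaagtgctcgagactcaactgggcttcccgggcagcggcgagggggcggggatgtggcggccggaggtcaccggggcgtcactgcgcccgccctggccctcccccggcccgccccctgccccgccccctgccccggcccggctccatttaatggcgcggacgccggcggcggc
AK4, chr1:65147953-65148202, plus strand: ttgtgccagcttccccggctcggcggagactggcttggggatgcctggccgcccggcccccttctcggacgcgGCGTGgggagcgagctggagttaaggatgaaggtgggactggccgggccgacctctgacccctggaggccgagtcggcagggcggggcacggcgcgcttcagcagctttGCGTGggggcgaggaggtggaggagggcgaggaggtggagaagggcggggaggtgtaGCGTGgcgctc

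The ADORA2B window held 1 GCGTG, at 229 bases before the start. The AK4 window held 3, at 177, 68 and 11 bases, and that of ADSS1 held none. Among 35116 RefSeq promoter windows of this length 43.2% held either word, and among the 9 of the 10 genes with an entry 4 did (ADORA2B, AK4, ADA and AMPD2). The cyclic AMP response element TGACGTCA was in 0 of these 9 and in 1.6% of all windows. These are matches of letters only.

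Of the receptors, ADORA2B was the one that passed the filter for testing (1 CPM or more in at least 3 of the 6 libraries of a line). For this filter CPM was taken before TMM scaling. ADORA2B (ENSG00000170425, chromosome 17, 15945130 to 15975746, plus strand, GENCODE 44 on hg38) encodes the A2B receptor. In control OVCAR3 it was at 5.80 (L), 6.44 (M) and 6.99 (R) CPM, and in HCQ-evolved OVCAR3 at 12.7, 16.0 and 16.3 CPM. In CCL218 it was at 3.05, 4.003 and 3.20 CPM in controls and at 9.67, 8.16 and 8.31 CPM in HCQ-evolved pools. All evolved pools lay above all control pools of their line, and evolved CCL218 pools also lay above control OVCAR3 pools. The log2 fold change (HCQ-evolved over control) was 1.24 (standard error, SE, 0.21) in OVCAR3 and 1.35 (SE 0.18) in CCL218, that is 2.36-fold and 2.54-fold. It stayed between 1.15 and 1.48 when any 1 pool was left out. In bulk RNA, more cells that express a gene and more of its RNA per cell cannot be told apart. A pseudogene, ADORA2BP1, exists on chromosome 1.

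The A1 receptor was scarce but had more than 3 counts in every library. ADORA1 had 22, 14 and 36 counts in control OVCAR3 pools and 10, 14 and 4 in evolved pools, or 0.440 to 0.666 and 0.0669 to 0.270 CPM. In CCL218 it had 42, 18 and 74 counts in controls and 22, 27 and 22 in evolved pools. Control pools were higher in OVCAR3, and in CCL218 the pools overlapped. An exact two-sided permutation test of CPM gave p = 0.1 in OVCAR3, the smallest that 3 against 3 pools can give, and p = 0.3 in CCL218. With no filter on low counts, edgeR gave log2 fold changes of -1.67 (adjusted p = 0.211) and -1.16 (adjusted p = 0.199). ADORA1 shares 444 exonic bases with a long noncoding RNA on the opposite strand. With the strand setting of the counting not given, its counts could hold reads of that RNA.

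ADORA2A, the A2A receptor, passed 3 counts in a single library (control CCL218 L, 5 counts). The others had 0 to 2 counts, which is at or under the floor of 3 counts taken here as the limit of detection for counting error. Its exons share 2380 bases with the readthrough gene SPECC1L-ADORA2A on the same strand, which had 0 counts in every library. Reads that fall on both genes may not have been assigned to either, so the level of ADORA2A is uncertain. ADORA3, the A3 receptor, had at most 6 counts.

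**Figure D1:**
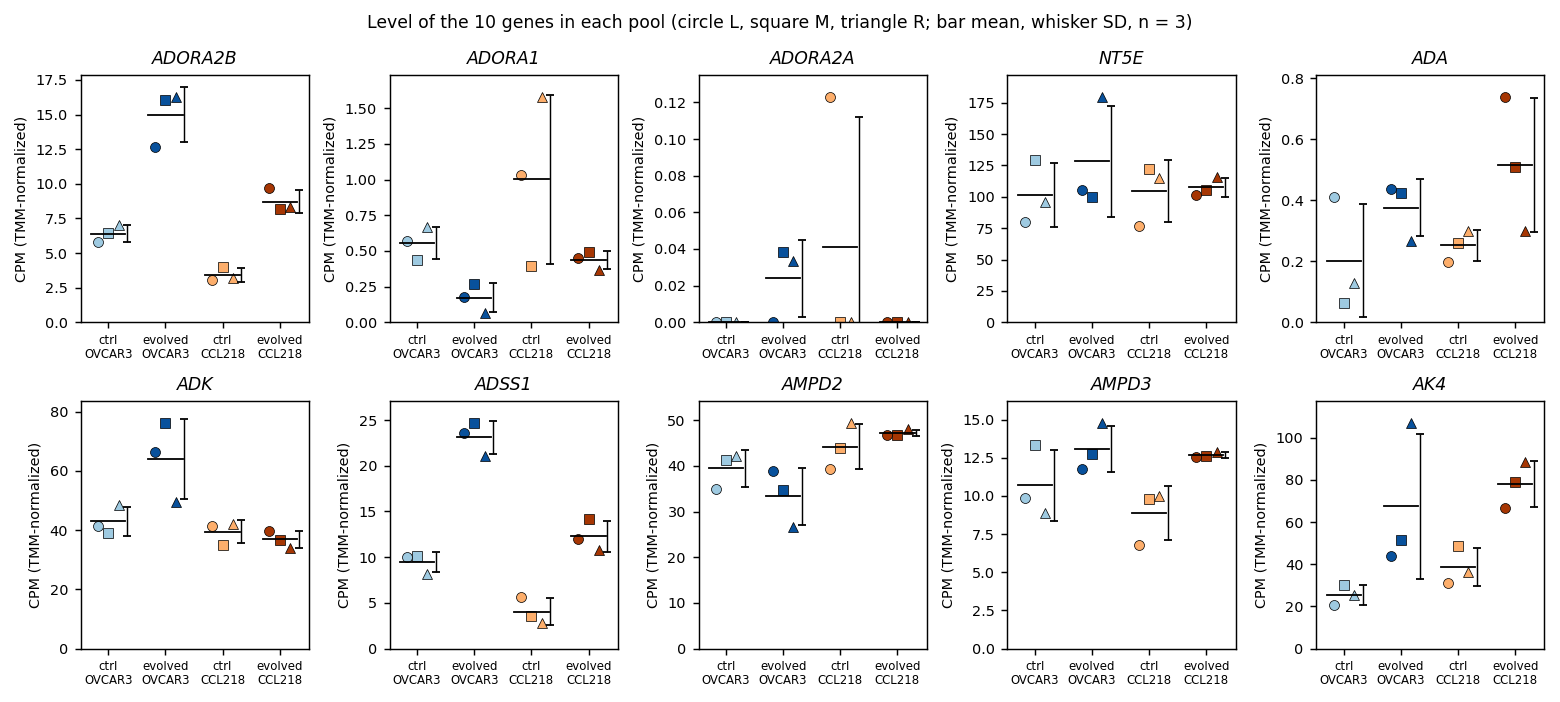
TMM-normalized CPM (vertical axis, linear, from 0) of each of the 10 genes in the 3 pools of each group (horizontal axis), with the mean (bar) and SD (whisker). ADORA2B and ADSS1 stand higher in every HCQ-evolved pool, AK4 reaches 106.9 CPM in HCQ-evolved OVCAR3 R, and ADORA1, ADORA2A and ADA stay below 2 CPM throughout.

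NT5E encodes CD73, the membrane enzyme that makes adenosine from AMP outside the cell. It had the highest level of the 10 genes per kilobase of transcript in every group, with 28.6 ± 7.15 CPM per kb (SD, n = 3) in control OVCAR3 and 29.4 ± 6.87 in control CCL218. In OVCAR3 it was at 79.5, 129.5 and 96.0 CPM in control pools and at 105.2, 100.04 and 179.5 CPM in evolved pools. In CCL218 the values were 76.8, 122.3 and 115.0 CPM and then 101.1, 105.5 and 115.8 CPM. Pools overlapped in both lines. The log2 fold change was 0.35 (SE 0.30, adjusted p = 0.622, edgeR with Benjamini-Hochberg adjustment) in OVCAR3 and 0.04 (0.19, adjusted p = 0.920) in CCL218. Without HCQ-evolved OVCAR3 R the first was 0.01, and the second turned to -0.15 without control CCL218 L.

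Of the enzymes that remove adenosine, ADK was expressed and ADA was scarce. ADK was at 41.4, 38.9 and 48.4 CPM in control OVCAR3 and at 66.3, 76.0 and 49.5 CPM in evolved OVCAR3. All evolved pools lay above all controls, although evolved R exceeded control R by little. In CCL218 ADK was at 41.3, 35.1 and 42.0 CPM in controls and at 39.8, 36.7 and 34.1 CPM after evolution, with overlap. The log2 fold change was 0.59 (SE 0.21, adjusted p = 0.221) in OVCAR3 and -0.10 (0.14, adjusted p = 0.658) in CCL218, so neither passed, and the difference between the lines (-0.67, SE 0.24) had an adjusted p = 0.336 in edgeR's interaction test.

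ADA had 16, 2 and 7 counts in control OVCAR3 and 25, 22 and 16 in evolved OVCAR3. In CCL218 it had 8, 12 and 14 counts and then 36, 28 and 18. The exact permutation test gave p = 0.2 in OVCAR3, where pools overlapped, and p = 0.1, its smallest value, in CCL218, where evolved R (0.301 CPM) stood just above control R (0.299 CPM). ADA shares 853 exonic bases with PKIG on the opposite strand, and since the strand setting of the counting is not given in the sources used here, its counts could hold reads of PKIG. ADA2, a secreted deaminase, had at most 4 counts.

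The AMP deaminases did not pass in either line. AMPD2 was at 34.9, 41.3 and 42.2 CPM in control OVCAR3 and at 38.8, 34.7 and 26.6 CPM after evolution (log2 fold change -0.23, SE 0.21, adjusted p = 0.641). In CCL218 it was at 44.2 ± 4.98 CPM in controls and 47.2 ± 0.733 CPM after evolution (SD, n = 3; 0.09, SE 0.13, adjusted p = 0.683). AMPD2 overlaps GNAT2 and a long noncoding RNA on the other strand. AMPD3 was at 9.85, 13.3 and 8.92 CPM in control OVCAR3 and at 11.8, 12.8 and 14.8 CPM in evolved pools, which overlapped (0.31, SE 0.23, adjusted p = 0.557). In CCL218 all evolved pools of AMPD3 (12.5, 12.6 and 12.9 CPM) were above all control pools (6.81, 9.81 and 10.03 CPM), with a log2 fold change of 0.51 (SE 0.18) and an adjusted p = 0.132. Without control CCL218 L, its lowest pool, the log2 fold change was 0.34 and the adjusted p = 0.0479. The muscle paralog AMPD1 had at most 2 counts.

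ADSS1 (ENSG00000185100, chromosome 14, 104724174 to 104747325, plus strand) encodes the adenylosuccinate synthase best known from muscle. In OVCAR3 it was at 9.98, 10.1 and 8.16 CPM in control pools and at 23.6, 24.6 and 21.1 CPM in evolved pools. In CCL218 it was at 5.65, 3.52 and 2.82 CPM and then at 11.9, 14.1 and 10.8 CPM. All evolved pools lay above all controls in both lines. The log2 fold changes were 1.31 (SE 0.18) and 1.62 (0.27), or 2.49-fold and 3.07-fold, and lay between 1.22 and 1.94 when any 1 pool was left out. Control CCL218 L was the highest control pool of that line.

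The isozyme ADSS2, which other tissues use, was at 50.9, 77.6 and 81.8 CPM in control OVCAR3 and at 88.2, 89.1 and 105.4 CPM in evolved OVCAR3. Its evolved pools lay above its controls there, with a log2 fold change of 0.44 (SE 0.24, adjusted p = 0.411). In CCL218 it was 0.18 (SE 0.19, adjusted p = 0.585), with overlapping pools, and -0.02 without control CCL218 L. ADSS1 therefore took a larger share of the pair after evolution. ADSS1 was picked for its rise in these libraries, so this larger share follows in part from that choice and is a description. Per kilobase of transcript, ADSS1 made up 22.5%, 16.2% and 12.9% of both isozymes in control OVCAR3 and 28.4%, 29.1% and 22.9% in evolved OVCAR3. In CCL218 the share was 13.2%, 5.86% and 4.36% in controls and 17.2%, 19.4% and 15.2% after evolution. The means rose from 17.2% ± 4.88 to 26.8% ± 3.40 in OVCAR3 and from 7.81% ± 4.73 to 17.3% ± 2.10 in CCL218 (SD, n = 3), and ADSS2 remained the more abundant isozyme in all 12 libraries.

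**Figure D2:**
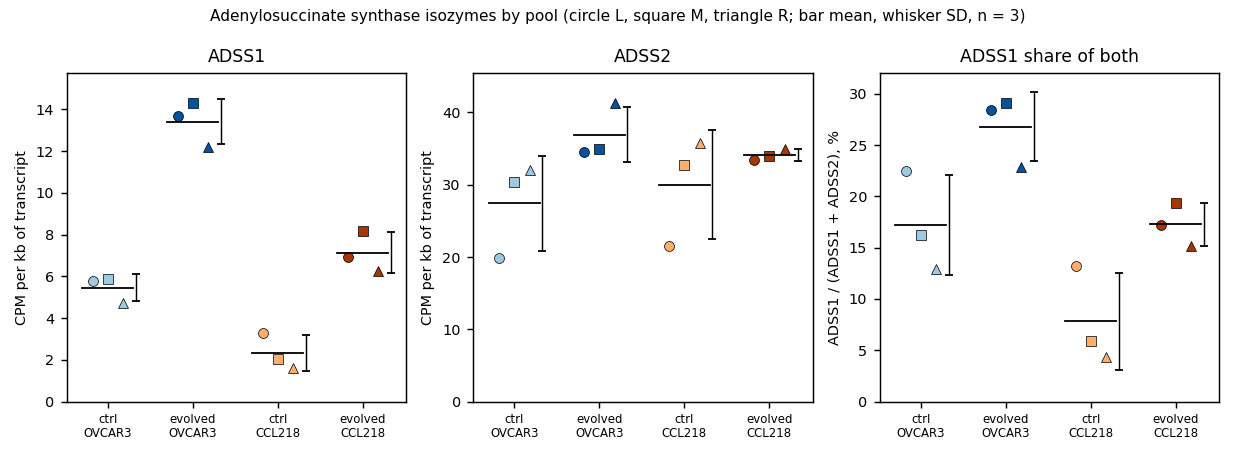
Levels of ADSS1 and ADSS2 in CPM per kilobase of transcript, and the ADSS1 share of their sum in percent (vertical axes, from 0), for the 3 pools of each group (horizontal axis), with mean and SD. The share is 12.9 to 22.5% in control OVCAR3 pools and 22.9 to 29.1% in HCQ-evolved ones, and no share exceeds 29.1%. ADSS1 was picked for its rise.

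AK4 (ENSG00000162433, chromosome 1, 65147549 to 65232145, plus strand), an adenylate kinase of the mitochondrial matrix, had the largest fold change of the 5 tested genes that had not been picked. In OVCAR3 it was at 20.7, 30.2 and 25.5 CPM in controls and at 44.1, 51.5 and 106.9 CPM after evolution. In CCL218 it was at 30.9, 48.7 and 36.5 CPM and then at 66.5, 79.1 and 88.3 CPM. All evolved pools were above all controls in both lines, and HCQ-evolved OVCAR3 R stood far above its group. The log2 fold change was 1.01 (SE 0.20, adjusted p = 0.0325, edgeR) in CCL218, where AK4 passed the test, and 1.43 (0.37, adjusted p = 0.105) in OVCAR3, where it did not.

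Both calls of AK4 depended on the fit. In CCL218 it did not pass when HCQ-evolved L (adjusted p = 0.0951), M (0.171) or R (0.151) or control R (0.127) was left out, nor with all 12 libraries in one fit (0.0915). In OVCAR3 the log2 fold change was 0.91 (adjusted p = 0.0546) without HCQ-evolved R, and AK4 passed there with all 12 libraries in one fit (0.0182), with no filter on low counts (0.0320) and with DESeq2 (0.00417). AK4 has a long transcript (6845 bases), and HCQ-evolved OVCAR3 R was the library whose deviation from its line's mean was most positively related to transcript length (Spearman's rho across genes 0.513, against -0.449 to 0.467 in the others). With the trend in length and GC content removed from each library, the log2 fold change of AK4 was 1.27 in OVCAR3 (adjusted p = 0.0164) and 0.87 in CCL218 (adjusted p = 0.00332). AK4 has 5 pseudogenes (AK4P1, AK4P2, AK4P4, AK4P5 and AK4P6), so its level is uncertain.

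Counted over the 8 genes that had not been picked, 5 could be tested. In OVCAR3, 0 passed at an adjusted p under 0.05 by edgeR, 2 had an unadjusted p under 0.05 (AK4 and ADK), and DESeq2's Wald test called 1 (AK4). Of all 12204 genes tested there, 1983 had an unadjusted p under 0.05 by edgeR, and DESeq2 called 1105. By edgeR, 0.647% were higher and 1.21% lower at an adjusted p under 0.05. These were 79 and 148 genes, against 480 and 373 after removal of the trend in length and GC. In CCL218, 1 of 5 was higher and 0 were lower, where 3.82% of 12241 genes were higher and 2.64% lower. All 3 evolved pools lay above all 3 control pools for 2 of the 5 in OVCAR3 (ADK and AK4) against 13% of all genes, and for 2 of the 5 in CCL218 (AMPD3 and AK4) against 18.6%. With so few genes these shares are a description. The median log2 fold change of the 5 was 0.35 in OVCAR3 and 0.09 in CCL218, beside 0.016 and -0.017 over all genes. In CCL218, control and evolved pools of 1 position deviated together from their group means (correlations 0.506 for L, 0.233 for M, 0.195 for R). Their relation to transcript length had like signs too (rho -0.449 and -0.211 in L, 0.421 and 0.257 in M, 0.029 and 0.416 in R, control first). Whether position or this relation paired them was not tested. With a replicate block for position 1744 genes in place of 791 were called there, while AK4 was still the 1 gene called of the 5 (adjusted p = 0.00387, edgeR).

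**Figure D3:**
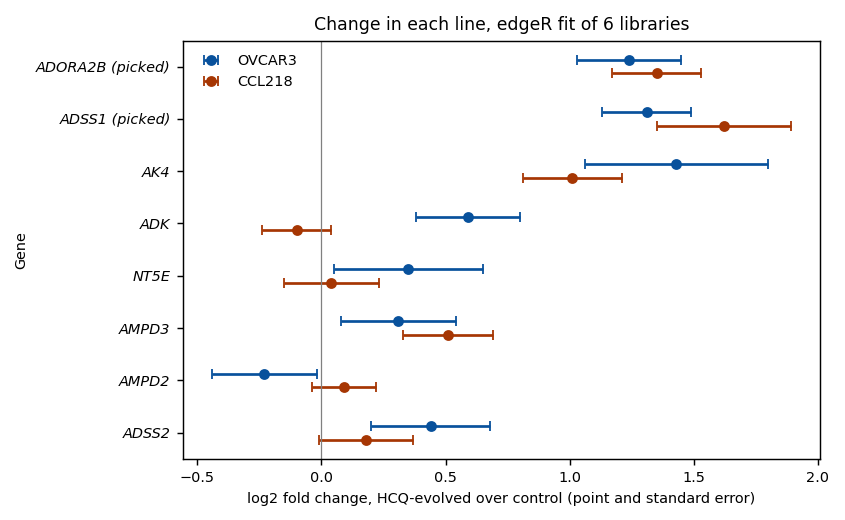
Log2 fold change of HCQ-evolved over control (horizontal axis) with its standard error for the 7 tested genes and ADSS2 (vertical axis), in OVCAR3 (blue) and CCL218 (orange-brown), each from 6 libraries. ADORA2B and ADSS1 were picked for their rise. Of the others AK4 lies farthest to the right, at 1.43 in OVCAR3 and 1.01 in CCL218, and ADK, at 0.59 and -0.10, differs most in position between the lines.

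Whether a change differed between lines was asked by the interaction in one fit of all 12 libraries (CCL218 minus OVCAR3). None of the 5 genes passed with edgeR or with DESeq2, where 0.872% of 12613 genes passed with edgeR. Of the 5, 1 (ADK) had an unadjusted p under 0.05 by edgeR, as did 1149 of all genes. AK4 differed by -0.40 (SE 0.44, adjusted p = 0.999), and by 0.10 without HCQ-evolved OVCAR3 R, which turned the sign. For the picked genes the difference was 0.12 (SE 0.24) for ADORA2B and 0.32 (0.33) for ADSS1, given as a description because both genes were picked for a rise in both lines.

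The control pools of the lines, all passaged without HCQ, were compared with each other. None of the 5 tested genes that had not been picked passed with edgeR or DESeq2 (1 at an unadjusted p under 0.05, AK4), where 2.02% of 12324 genes passed with edgeR. An unadjusted p under 0.05 by edgeR was found for 1528 of those 12324 genes. ADORA2B was lower in control CCL218 than in control OVCAR3 by a log2 difference of -0.91 (SE 0.21), and ADSS1 by -1.24 (0.29). All CCL218 control pools lay below all OVCAR3 control pools for both. The control libraries are those on which both genes were picked, so these values are a description with no test. AK4 was at 38.7 ± 9.12 CPM in control CCL218 and 25.5 ± 4.72 in control OVCAR3 (SD, n = 3; adjusted p = 0.349).

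Within a group, levels per kilobase fell in the order NT5E, ADK, AMPD2, ADSS1, ADORA2B, AK4, AMPD3 in control OVCAR3. Pools of NT5E and ADK overlapped there, as did those of ADORA2B and AK4 and of AK4 and AMPD3. In HCQ-evolved OVCAR3 the third to sixth places were held by ADSS1 (13.4 ± 1.06 CPM per kb), AK4 (9.86 ± 5.01), ADORA2B (9.85 ± 1.32) and AMPD2 (8.18 ± 1.53), each overlapping the next. In control CCL218, ADSS1 (2.32 ± 0.857), ADORA2B (2.25 ± 0.337) and AMPD3 (2.12 ± 0.429) overlapped, and after evolution AK4 (11.4 ± 1.60) overlapped AMPD2 (11.6 ± 0.180), and ADSS1 (7.13 ± 0.983) overlapped ADORA2B (5.72 ± 0.545). ADORA1, ADA and ADORA2A were last in every group.

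Around these genes, 97 further genes of purine handling and cyclic AMP were examined in lists. In OVCAR3, 60 could be tested and 34 had a log2 fold change above 0, where 51.6% of all genes did. SLC29A4 was the 1 that passed with edgeR, where 0.647% of all genes passed higher and 1.21% lower. DESeq2 called 4 higher and 4 lower, removal of the length and GC trend gave 4 and 1, and the replicate block gave 0. Over all 12204 genes, DESeq2 called 542 higher and 563 lower, trend removal 480 and 373, and the block 17 and 64. In CCL218, 61 could be tested, 34 were above 0, where 48.3% of all genes were, 4 passed higher with edgeR (AK7, P2RX4, SLC28A1 and SLC29A4) and 2 lower (ADCY5 and SLC29A2), where 3.82% of all genes passed higher and 2.64% lower. SLC28A1, AK7 and ADCY5 would not have reached the filter without the group in which they were high, so their calls could only go one way and support nothing about the list. DESeq2 called 7 higher and 5 lower in CCL218, and removal of the trend gave 9 and 6. With the replicate block 7 passed higher and 4 lower in CCL218. Over all 12241 genes, DESeq2 called 1104 higher and 1068 lower, trend removal 1055 and 967, and the block 957 and 787. The median log2 fold change of the tested list genes was 0.13 in OVCAR3 and 0.05 in CCL218.

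Of 9 genes of nucleoside transport and ATP release 8 were tested. SLC29A4 encodes an equilibrative transporter that also carries monoamines. It was at 145.3, 116.8 and 111.1 CPM in control OVCAR3 and at 300.2, 305.0 and 274.6 CPM in evolved OVCAR3, a log2 fold change of 1.26 (SE 0.17, adjusted p = 0.0187). In CCL218 it rose from 115.2, 73.7 and 61.3 CPM to 265.1, 259.8 and 233.0 CPM (1.60, SE 0.24, adjusted p = 0.0130). Pools were apart in both lines and the log2 fold change was 1.18 to 1.89 with any 1 pool left out. The adjusted p was then 0.00675 to 0.136 in OVCAR3, where SLC29A4 passed only without HCQ-evolved R, and 5.62e-06 to 0.0814 in CCL218, where it passed only without control L or M. SLC28A1, a concentrative transporter, was at 0.467, 0.261 and 0.384 CPM in control CCL218 and at 0.985, 1.02 and 1.003 CPM in evolved pools, a log2 fold change of 1.43 (SE 0.29), and it reached the filter there through the evolved pools alone. In OVCAR3 its log2 fold change was 1.28 (adjusted p = 0.0850). SLC29A2 (ENT2) fell in CCL218 from 46.6, 44.3 and 41.5 CPM to 30.3, 27.4 and 29.7 CPM. Its log2 fold change was -0.60 there (SE 0.12, adjusted p = 0.0330) and -0.31 in OVCAR3 (adjusted p = 0.422). SLC29A2 passed with a pool left out only when that pool was control L, and it did not pass with no filter on low counts (adjusted p = 0.0575).

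Among the adenylate kinases besides AK4, AK7, a kinase linked to cilia, was in CCL218 at 0.836, 1.20 and 0.555 CPM in controls and at 3.08, 3.55 and 2.42 CPM in evolved pools (log2 fold change 1.80, SE 0.32). It would not have reached the filter there without its evolved pools, so its call could only be upward. In OVCAR3 its pools overlapped (0.49, SE 0.54, adjusted p = 0.704). It did not pass without control CCL218 R or any 1 of the evolved pools, nor with all 12 libraries in one fit (adjusted p = 0.0526). AK1, the cytosolic kinase, was at 64.7, 32.5 and 38.2 CPM in control CCL218 and at 28.6, 20.2 and 20.9 CPM in evolved pools (-0.96, SE 0.28, adjusted p = 0.0949). AK1 passed there in 6 of 14 alternatives. Among them were the replicate block (adjusted p = 0.00613, edgeR) and the fit without control CCL218 L (-0.62, adjusted p = 0.0155, edgeR). DESeq2 (adjusted p = 0.0119) and removal of the length and GC trend (-0.83, adjusted p = 0.0174, edgeR) also called it lower. AK3, another kinase of mitochondria, had log2 fold changes of 0.33 in OVCAR3 (adjusted p = 0.446) and 0.21 in CCL218 (adjusted p = 0.321), with evolved pools above controls in both lines. AK9 was lower in every evolved pool than in any control pool of its line (-0.63, adjusted p = 0.164, and -0.25, adjusted p = 0.252) and did not pass with edgeR in either line, although in OVCAR3 DESeq2 (adjusted p = 0.0320) and the fit of all 12 libraries (0.0141) called it. AK5, AK6 and AK8 were too low to test.

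The rest of the purine lists held few calls. Over all genes, 1983 of 12204 in OVCAR3 and 3084 of 12241 in CCL218 had an unadjusted p under 0.05 by edgeR. DESeq2 called 1105 genes in OVCAR3 and 2172 in CCL218. Extracellular hydrolysis of adenine nucleotides had 6 of 13 genes tested in OVCAR3 and 7 in CCL218 and 0 passing (1 at an unadjusted p under 0.05 in each line), although DESeq2 called ALPG lower in OVCAR3. Removal of the length and GC trend called ALPG lower in OVCAR3 (-1.54, adjusted p = 0.0424, edgeR) but higher in CCL218 (0.68, adjusted p = 0.047). It was 1 of 2 genes of this list called higher there. De novo purine synthesis had 11 of 11 tested with 0 passing (2 and 1 at an unadjusted p under 0.05), 9 above 0 in OVCAR3 and 7 in CCL218 (3 after removal of that trend), with DESeq2 calling IMPDH1 lower in CCL218. Adenosine and AMP removal had 11 of 17 tested and 0 passing (2 and 3 at an unadjusted p under 0.05), with DESeq2 calling DPP4 higher and MTAP lower in CCL218 and the replicate block calling DPP4 higher there (0.58, adjusted p = 0.0267, edgeR). In AMP synthesis and salvage the 4 genes beside ADSS1 were tested and 0 passed (1 at an unadjusted p under 0.05 in each line), with DESeq2 calling HPRT1 higher in OVCAR3 and the replicate block calling APRT lower in CCL218 (-0.62, adjusted p = 0.0326, edgeR). Of 16 P2 receptors, which sense ATP and related nucleotides, 3 were tested in OVCAR3 and 4 in CCL218. In OVCAR3 0 passed in the reported edgeR fit or with DESeq2, and 0 had an unadjusted p under 0.05 in that fit. P2RX4, an ATP-gated cation channel, rose in CCL218 from 16.8, 13.4 and 13.6 CPM to 27.6, 29.6 and 25.1 CPM (0.90, SE 0.15, adjusted p = 0.0166), and had 0.25 in OVCAR3 (adjusted p = 0.619, pools overlapping). It did not pass without control CCL218 R or any 1 of the evolved pools. P2RY2, a receptor for ATP and UTP, did not pass in the reported edgeR fit of CCL218. It was called higher there with the replicate block (0.58, adjusted p = 0.0413, edgeR) and by DESeq2 (0.0343). Removal of the length and GC trend also called it higher in CCL218 (0.53, adjusted p = 0.027, edgeR) and in OVCAR3 (0.53, adjusted p = 0.047, edgeR).

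Downstream of the receptors, 17 of 24 genes of cyclic AMP synthesis and breakdown were tested in OVCAR3 and 16 in CCL218. ADCY5, an adenylyl cyclase, was at 3.22, 2.33 and 1.98 CPM in control CCL218 and at 0.328, 0.474 and 0.485 CPM in evolved pools, a log2 fold change of -2.54 (SE 0.30). In OVCAR3 it was at 2.78, 2.01 and 1.24 CPM in controls and at 0.838, 0.270 and 0.0669 CPM after evolution (-2.33, SE 0.74, adjusted p = 0.167), with all evolved pools below all controls. In both lines it reached the filter through the control pools alone. No other gene of this list passed in the reported edgeR fit of either line. The replicate block called ADCY6 higher in CCL218 (0.65, adjusted p = 0.0363, edgeR), while removal of the length and GC trend called PDE3B lower there (-0.62, adjusted p = 0.0146, edgeR). In OVCAR3, 2 of the 17 had an unadjusted p under 0.05, where 1983 of all 12204 genes did (edgeR). DESeq2 called ADCY5 and PDE4D lower there, among 563 genes called lower in all. So did edgeR with all 12 libraries in one fit (adjusted p = 0.0392 for ADCY5 and 0.023 for PDE4D), among 607 genes called lower.

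**Figure D4:**
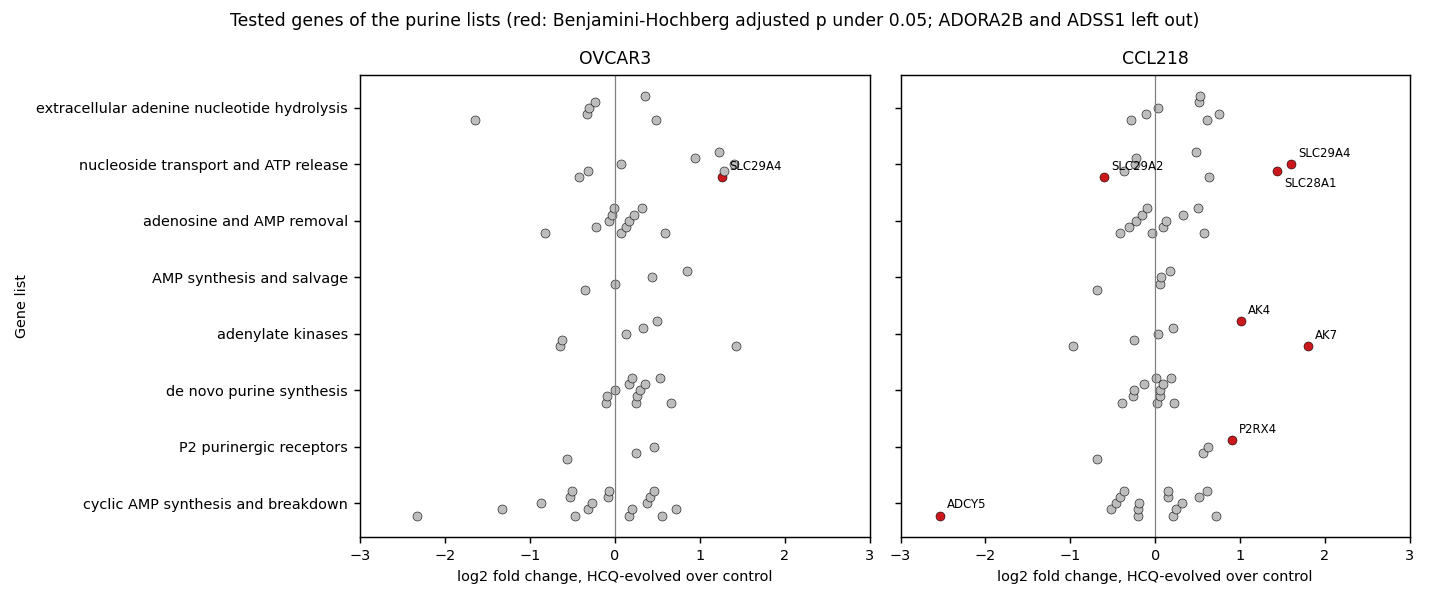
Log2 fold change of HCQ-evolved over control (horizontal axis) of each tested gene in 8 lists (vertical axis) in OVCAR3 (left) and CCL218 (right). Each point is 1 gene, and red points with names passed at an adjusted p under 0.05, which was 1 gene in OVCAR3 (SLC29A4) and 7 in CCL218. Of these, AK7, SLC28A1 and ADCY5 would not have reached the filter in CCL218 without the group in which they were high. ADORA2B and ADSS1 are left out.

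The genes closest in pattern to ADORA2B and ADSS1 over the 12 libraries were found by the root mean square difference of log2 CPM after each gene was centred on its mean, among 11943 other genes. Closest to ADORA2B were ADAM8, a membrane metalloprotease (0.183 log2 units), CDKN2C, an inhibitor of cyclin-dependent kinases (0.212), SLC16A3, the lactate exporter MCT4 (0.222), LDHA, a lactate dehydrogenase subunit (0.246), and TCF21, a transcription factor (0.252). The median over all genes was 0.853. LDHA, for example, was at 1488 to 1722 CPM in control OVCAR3 and 3032 to 3479 CPM after evolution, and at 1076 to 1227 and then 2020 to 2306 CPM in CCL218.

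Closest to ADSS1 were DDIT4, a restraint on mTORC1 (0.247), PADI1, a peptidylarginine deiminase (0.265), CHST11, a chondroitin sulfotransferase (0.334), PPFIA4, a liprin (0.334), and MIR210HG, the host transcript of miR-210 (0.352), against a median of 1.02. DDIT4 was at 157.2 to 160.2 CPM in control OVCAR3 and at 424.7 to 533.0 CPM after evolution. SLC29A4 ranked 6 and ADORA2B ranked 9 in likeness to ADSS1, and ADSS1 ranked 30 in likeness to ADORA2B, where both had been picked for a rise over these same libraries, so their likeness follows in part from that choice. AK4 ranked 2241 for ADORA2B and 3579 for ADSS1. By ranks of the 12 libraries in place of log2 values, 1 of the 5 nearest genes was shared for each. All these genes were measured in the same libraries, so likeness includes whatever those libraries share.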

How the data were processed

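The deposited table held counts per gene symbol. Per the study's methods and the submitters' processing notes, the authors aligned polyA RNA reads to hg38 with STAR, removed duplicates with RmDup and counted reads with featureCounts. Versions and the strand setting are not given in the sources used here. Of entries of 1 to 4 counts 78.9% were even, so counts may not be independent fragments.

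Genes at 1 CPM or more, before TMM scaling, in at least 3 libraries were tested with edgeR 4.0.16 in R 4.3.3. The settings were TMM, quasi-likelihood F test, Benjamini-Hochberg adjustment and a threshold of 0.05. Each line was fitted alone, with all 12 libraries for the interaction and the 6 control libraries for the baseline. The method was checked on simulated data. DESeq2 1.42.0, limma 3.58.1 voom, other scalings and filters, omission of each pool, a block for plate position and removal of a spline trend in length and GC content (5 degrees of freedom) were alternatives, and the last together with the block was chosen after seeing the data. Positions and lengths (Ensembl canonical transcripts) came from GENCODE 44, which matched 91.1% of 28278 symbols.

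The genes and lists were chosen with earlier results of these data known. Named are all 10 genes, list genes that passed in either line (at most 6 per list), ADORA3 and paralogs, and the 5 genes nearest in pattern to ADORA2B and to ADSS1. ADCY6, ALPG, APRT, DPP4, HPRT1, IMPDH1, MTAP, P2RY2, PDE3B and PDE4D were named after their values were seen. The prior count of log2 CPM was 2. Intervals and floors cover counting error only. The reported edgeR fits had no block for position in either line, so their p-values leave out any pairing of pools, also in CCL218. After group means were removed, pools of 1 position correlated at 0.506 (L), 0.233 (M) and 0.195 (R) in CCL218. In OVCAR3 they correlated at 0.401, -0.665 and -0.478. Whether plate position or the libraries' relation to transcript length lay behind these correlations was not tested. No pools of a group agreed within sampling noise. Exome, single-cell and CRISPR data were not analysed here, and 1 list gene is not reported by name.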

Additional observations from a re-analysis of the deposited data

How the results depend on the processing

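Of the 5 tested genes that had not been picked, the number called in OVCAR3 was 0 and became 1 (AK4) with all 12 libraries in one fit, with DESeq2's Wald test, with no filter on low counts (8 genes tested), with the length and GC trend removed, and with that and the replicate block together. The replicate block alone left it at 0 and cut the calls over all genes from 227 to 81 in OVCAR3, where pools did not deviate together by position, and SLC29A4 no longer passed there (adjusted p = 0.0755, edgeR). Leaving out single pools gave 0 to 0 in OVCAR3. In CCL218 the number was 1, became 0 with all 12 libraries in one fit, and was 0 to 2 with single pools left out (2 without control L, with AMPD3). In the interaction it was 0 under all alternatives. Between control pools it was 0 under all alternatives. The causes were not tested.

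With the length and GC trend removed, NT5E had -0.008 in CCL218 and -0.055 between control pools, against small positive log2 values in the reported fits. Leaving out single pools gave log2 values for NT5E of -0.15 to 0.17 in CCL218, -0.50 to 0.025 in the interaction and -0.11 to 0.26 between control pools, for AK4 of -0.63 to 0.10 in the interaction and for ADSS2 of -0.018 to 0.32 in CCL218. ADORA2B and ADSS1 had log2 fold changes above 0 in both lines under every alternative run. Both were picked for that rise in these same libraries, so refits of the libraries give it no support. Over all genes, the calls were 227 in OVCAR3 (1165 with all 12 libraries in one fit, 1105 with DESeq2, 853 with the trend removed, 362 with trend and block, 549 with no filter, 3 to 557 with single pools left out), 791 in CCL218 (2172 with DESeq2, 2022 with the trend removed, 2018 with trend and block, 102 to 3047 with single pools left out, the highest without control L), 110 in the interaction (463 with DESeq2, 317 with the trend removed, 35 with the replicate block, 38 to 212 with single pools left out) and 249 between control pools (734 with DESeq2, 470 with the trend removed, 431 with all 12 libraries, 394 with no filter, 25 to 471 with single pools left out). ADORA1, ADORA2A and ADA had too few counts to pass the filter.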
